A study of Homo sapiens with 9 samples.

Results

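DNA replication and G1/S genes are described here as 52 genes, chosen by name as the rows of the count table that carry their symbols, of 60649 genes listed. The rule used no measured value, each symbol had 1 row, and all 52 were among the 14274 genes that passed the filter on low counts, with 17 counts in the lowest library of any of them. The genes were nevertheless chosen with earlier results of these data known, so counts over them support nothing by themselves. MDA-MB-231, a human cell line established from triple-negative breast cancer, was sequenced as 9 mRNA libraries in 3 groups: 3 with the control vector PLKO-GFP and 3 each with shAHR#2 or shAHR#3, separate short hairpin RNAs against AHR, the ligand-activated transcription factor known as the aryl hydrocarbon receptor. All 3 groups were grown in DMEM with fetal bovine serum, carried a lentiviral vector and were labelled with proliferation as treatment, and no untransduced cells were among them. Each population was a pool of puromycin-resistant survivors, not a clone, and nothing in the labels says that the replicates were separate cultures, so p-values measure only the spread between these libraries, which may be technical.

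Replication origins are licensed in G1, when the origin recognition complex, CDC6 and CDT1 load the MCM2-7 helicase onto DNA. On entry into S phase, CDC45 and the GINS complex join MCM2-7 to form the active CMG helicase, and polymerases, the PCNA clamp with its loader RFC, and the single-strand binding complex RPA follow at the fork. D-type and E-type cyclins with their kinases inactivate the RB family and thereby free E2F factors, whose known target genes include many of the genes described here. E2F1 is an activator of that programme, whereas E2F7 and E2F8 are repressors.

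The control libraries held 17407688 to 19509030 counts, those of shAHR#2 15991396 to 19112459 and those of shAHR#3 19436825 to 20374460. AHR itself was at 114, 118 and 121 CPM (counts scaled to library size after TMM normalisation) in the controls, at 42.5, 40.4 and 41.9 with shAHR#2 and at 46.3, 52.1 and 44.5 with shAHR#3, so the 6 libraries labelled shAHR lay below all 3 controls. AHR shares 29.5% of its exon length with an overlapping gene on the same strand, so its counts are uncertain. The cell line label was checked against marker genes: VIM, CD44, KRT8, KRT18 and EGFR had mean levels from 188 CPM upward in every group, PGR and CDKN2A were at 0 in all libraries, and ESR1 had a mean of at most 0.153 CPM. Of the other 2 markers listed as low or absent in this line, ERBB2 was not low, with means of 62.4, 62.8 and 71.8 CPM, and CDH1 rose from a mean of 0.909 CPM to 1.80 with shAHR#2 and 4.16 with shAHR#3. Among markers of other cell types, PTPRC of leukocytes was at 0.0565 to 0.200 CPM in the controls, 0.886 to 1.77 with shAHR#2 and 0.716 to 1.46 with shAHR#3, and PECAM1 of endothelium at 2.15 to 2.71, 10.0 to 12.3 and 11.5 to 12.5. CD3E and COL2A1 were at 0 in every library, ALB had a mean of at most 0.0393 CPM, and the 5 markers together summed to 2.35 to 2.77 CPM in the controls, 11.9 to 13.9 with shAHR#2 and 12.4 to 14.0 with shAHR#3. Their part in the results was not tested.

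The genes moved in both directions, by small amounts. All 4 genes grouped under origin licensing among the 52 (ORC1, ORC6, CDC6 and CDT1) were higher with both constructs. Most genes of helicase activation, the clamp and its loader, the polymerases and primase, and chromatin assembly were lower. With shAHR#2, 16 of the 52 rose, 26 fell and 10 did not pass the test (adjusted p under 0.05, quasi-likelihood test of edgeR, Benjamini-Hochberg over all tested genes). In that comparison 65.8% of all tested genes passed, 32.6% higher and 33.2% lower, so a share of called genes alone says little. With shAHR#3, 10 rose, 27 fell and 15 did not pass, against a background of 54.4% called, 26.9% higher and 27.5% lower. Averaged over the constructs, 16 rose and 28 fell, where 64.3% of all genes were called, 31.5% higher and 32.9% lower. The median log2 fold change of the 52 genes was -0.14 with shAHR#2 and -0.11 with shAHR#3, whereas that of all tested genes was -0.003 and 0.00. Both constructs were compared with the same 3 control libraries, so their values stand side by side and are not independent. The share of all tested genes called the same way with both constructs was not computed. Counts of genes that moved with both, given by role below, therefore have no background to stand against.

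Most changes were modest. Among the genes called, the median absolute log2 fold change was 0.26 with shAHR#2 and 0.22 with shAHR#3, below the 0.45 and 0.35 of all called genes. At an absolute log2 fold change of at least 0.5, 8 genes were lower with shAHR#2 (29.6% of all genes passed this in either direction) and 4 with shAHR#3 (17.5%), and the largest rises were those of ORC1 with shAHR#2 (0.44) and CDT1 with shAHR#3 (0.37). By CPM, 17 genes were above and 27 below every control library with shAHR#2 (33.8% and 34.4% of all tested genes), and 13 were above and 28 below with shAHR#3 (29.2% and 29.5%). Summed over the 52 genes, the level hardly differed, at 6229 to 6270 CPM in the controls, 6285 to 6359 with shAHR#2 and 6005 to 6073 with shAHR#3. This sum is weighted to abundant genes and mixes rises with falls. Sums by role ran from 73.4% to 129% of the control with shAHR#2 and from 75.8% to 114% with shAHR#3. The G1/S cyclins, which include the abundant CCND1, summed to 119% and 107%. A smaller share of cells in S phase and less of these RNAs per cell cannot be told apart in bulk libraries.

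**Figure D1:**
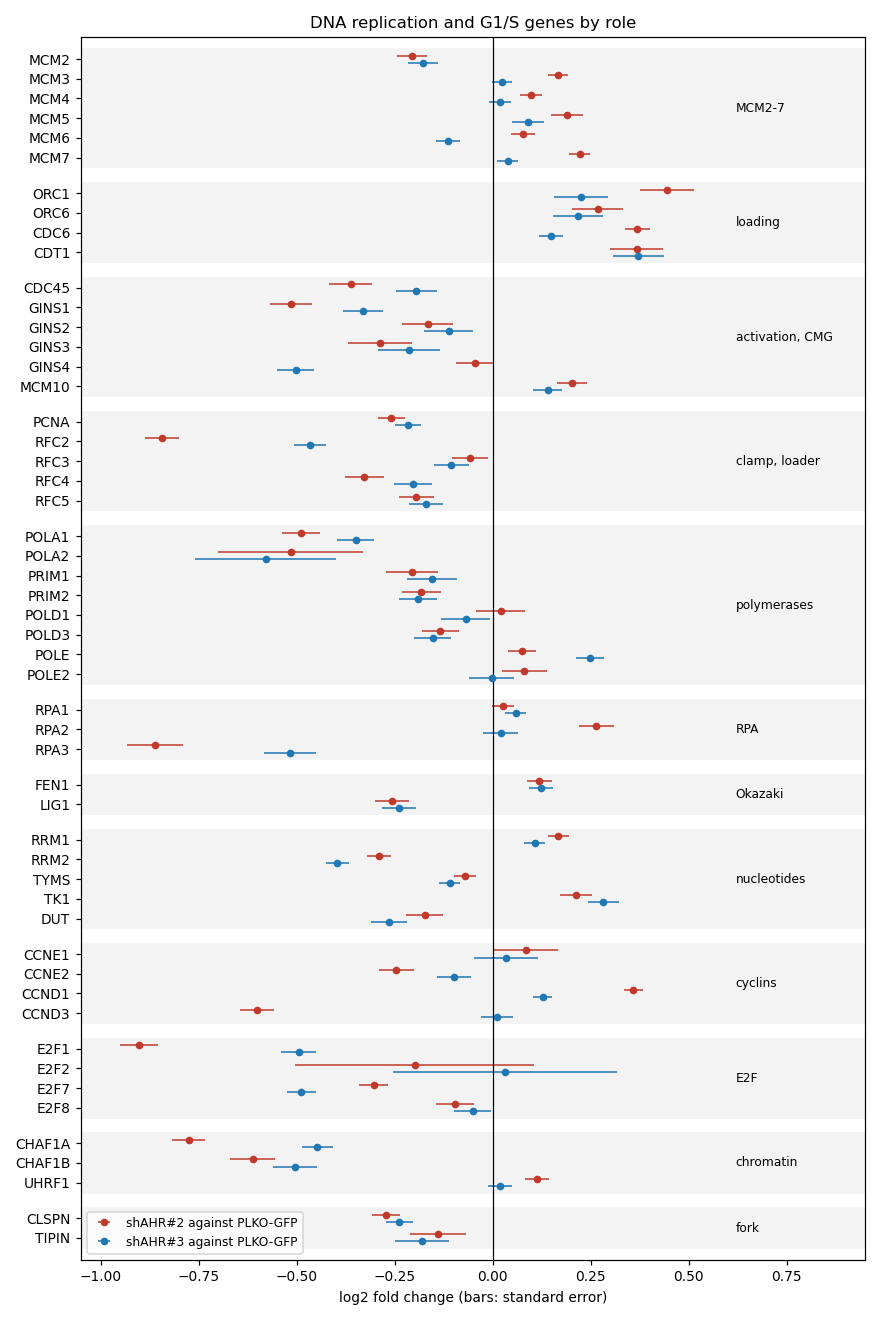
Log2 fold change (x axis, with its standard error as bars) of each of the 52 genes (y axis, grouped by role) for shAHR#2 (red) and shAHR#3 (blue) against PLKO-GFP. All 4 licensing genes lie to the right of 0 with both constructs, while RFC2, RPA3, E2F1, CHAF1A and CHAF1B lie farthest to the left with shAHR#2, at log2 fold changes from -0.90 to -0.61.

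Promoter sequence was searched for the letters of E2F-type sites, because the E2F factors are among the genes described and their target genes are spread over all roles. The RefSeq promoter table of GRCh38.p14 (250 bases before to 50 after a start site) held 60 promoters of 43 of the 52 genes. TTCCCGC or TTGGCGC on either strand was found in 55.0% of these promoters, against 9.23% of all 35116 promoters and 13.4% of the 15329 promoters of tested genes. Windows of 30 bases are shown for genes of licensing that rose, for genes of the helicase, clamp loader, chromatin assembly and E2F groups that fell, and for MCM6, each with the match nearest to a start site. They are written 5′ to 3′ on the strand of the gene, and capitals mark TTCCCGC or TTGGCGC or its reverse complement.
CDT1: cgggaaatttgGCGGGAAccgcgcccgcct
CDC6: gccattcggatTTGGCGCgagcgcggctgg
ORC1: ggccacgccgaTTGGCGCgaagttttcttt
GINS1: agctttgttcgGCGCCAAagcgcggagcgg
RFC2: tgcctcgggtgGCGGGAAgaggaggcgcga
CHAF1A: ggtcgccgcggTTCCCGCcaaatacgagcg
E2F1: gcaaaaaggatTTGGCGCgtaaaagtggcc
MCM6: attggtcaggtTTGGCGCgaaatctccagc

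In GRCh38 these windows lie at chr16:88803755-88803784 (CDT1), chr17:40287876-40287905 (CDC6), chr1:52404427-52404456 (ORC1), chr20:25407667-25407696 (GINS1), chr7:74254386-74254415 (RFC2), chr19:4402622-4402651 (CHAF1A), chr20:33686386-33686415 (E2F1) and chr2:135876514-135876543 (MCM6). CDT1, CDC6, GINS1 and CHAF1A are on the plus strand and ORC1, RFC2, E2F1 and MCM6 on the minus strand. The first capital letter stands 23 bases before the start site in CDT1, 22 in ORC1, 5 in RFC2, 7 in CHAF1A, 19 in E2F1 and 89 in MCM6, and 8 bases after it in CDC6 and 5 in GINS1. Matches were spread over the directions of change: 9 of 12 genes that rose for the mean of both constructs, 18 of 24 that fell and 5 of 7 not called had one. CCAAT, the letters of a common promoter box, was in 55.0% of the promoters of these genes, 34.8% of those of tested genes and 34.6% of all. TTTGAA, the letters of a cell cycle element, was in 3.33%, 10.6% and 15.2% in the same order.

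The core letters of the xenobiotic response element that AHR binds, GCGTG, were in 51.7% of the promoters of these genes, 48.0% of the promoters of tested genes and 36.5% of all promoters, in 8 of the 12 genes that rose, 13 of the 24 that fell and 3 of the 7 not called. The extended form TNGCGTG, which contains GCGTG, was in 5.00% of the promoters of these genes, 6.71% of those of tested genes and 5.51% of all. The median GC content was 67.5% in them, 64.7% in those of tested genes and 58.7% in all promoters. A match is a run of letters and not a measured site, and its part in the expression values was not tested.

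The licensing genes grouped here, ORC1, ORC6, CDC6 and CDT1, were the most uniform group. They rose with both constructs, 4 of 4, and their summed level was 129% of the control with shAHR#2 and 114% with shAHR#3. ORC2, ORC3, ORC4 and ORC5, subunits of the origin recognition complex in the wider list given below, did not share this. With shAHR#2 ORC5 rose by a log2 fold change of 0.29 (SE 0.07), and ORC2, ORC3 and ORC4 were not called. With shAHR#3 ORC2 and ORC4 fell, by -0.14 (SE 0.05) and -0.13 (SE 0.05), and ORC3 and ORC5 were not called. CDT1 (ENSG00000167513.9, chr16:88803789-88809258 of GRCh38 in GENCODE release 44, as for all positions here), which brings MCM2-7 to the origin, was at 23.7, 25.3 and 23.1 CPM in the controls, 32.4, 29.2 and 31.4 with shAHR#2 and 30.6, 29.987 and 32.9 with shAHR#3. Both shAHR groups were above every control and overlapped each other. The log2 fold changes were 0.37 (SE 0.07) and 0.37 (SE 0.07) (adjusted p = 1.14e-05 and 9.44e-06, edgeR's quasi-likelihood test). CDC6, the ATPase that completes the loader, was at 159, 159 and 152, 207, 199 and 201 and 177, 173 and 172 CPM in the same order of groups, and ORC1, the largest subunit of the origin recognition complex, at 24.2, 24.8 and 26.8, 35.8, 35.8 and 31.4 and 27.6, 29.6 and 31.3. For both, every shAHR library was above every control and the shAHR#2 libraries were higher than those of shAHR#3, with log2 fold changes of 0.37 (SE 0.03) and 0.15 (SE 0.03) for CDC6 and 0.44 (SE 0.07) and 0.22 (SE 0.07) for ORC1. The difference between the constructs was called for both (log2 -0.22 in each, adjusted p = 1.85e-07 and 0.00721, edgeR's quasi-likelihood test), although that of ORC1 was lost without shAHR#2 replicate 1 or without shAHR#3 replicate 1 (adjusted p = 0.0546 and 0.0595). ORC6, another subunit, rose by log2 fold changes of 0.27 (SE 0.06) and 0.22 (SE 0.06).

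The helicase subunits themselves did not move as a block. With shAHR#2, MCM3, MCM4, MCM5, MCM6 and MCM7 rose by log2 fold changes from 0.08 to 0.22 and MCM2 fell, while with shAHR#3 only MCM2 and MCM6 passed the test and both fell. The rise of MCM4 was lost with library totals in place of TMM (adjusted p = 0.351, edgeR's quasi-likelihood test). MCM2 (ENSG00000073111.14, chr3:127598410-127622436) was at 119.9, 116 and 122 CPM in the controls, 97.9, 107 and 106 with shAHR#2 and 107, 101 and 109 with shAHR#3. All 6 shAHR libraries of MCM2 were below the controls, with log2 fold changes of -0.21 (SE 0.04) and -0.18 (SE 0.04) (adjusted p = 1.59e-05 and 0.000128, edgeR's quasi-likelihood test). MCM5 stood at 82.6, 83.5 and 84.5, then 92.0, 100.4 and 93.9 and then 84.2, 89.9 and 92.7 CPM. Its shAHR#2 libraries were above the controls and those of shAHR#3 overlapped them, with log2 fold changes of 0.19 (SE 0.04) and 0.09 (SE 0.04) and adjusted p of 0.000123 and 0.0592 in edgeR's quasi-likelihood test. The second became a call without shAHR#2 replicate 1 or 2 or without shAHR#3 replicate 1 (adjusted p from 0.0115 to 0.0474). In the same test it was also called with a mean of at least 50 counts (adjusted p = 0.0382). With only the compared groups in the fit (0.0465) or with a replicate block (0.0441) it was called as well.

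MCM6 (ENSG00000076003.5, chr2:135839626-135876443) was the only gene of the 52 called in opposite directions. It was at 172, 182 and 176 CPM in the controls, 187, 185 and 187 with shAHR#2 and 161, 165 and 164 with shAHR#3, and the control libraries lay between the constructs without overlap. The log2 fold changes were 0.08 (SE 0.03) and -0.11 (SE 0.03), with adjusted p of 0.028 and 0.00196 in edgeR's quasi-likelihood test, and the smaller of these, the rise with shAHR#2, was lost with library totals in place of TMM (log2 0.01, adjusted p = 0.793), without the filter on low counts (adjusted p = 0.0884) and without PLKO-GFP replicate 1 or 3 or shAHR#2 replicate 1 or 3 (adjusted p from 0.0611 to 0.149). MCM3, MCM4, MCM5, MCM6 and MCM7 were each lower with shAHR#3 than with shAHR#2, by log2 differences from -0.19 to -0.08, whereas MCM2 differed by 0.03 (SE 0.04) and was not called. The differences of MCM4 and MCM5 did not hold with library totals in place of TMM (adjusted p = 0.262 and 0.246 in edgeR's quasi-likelihood test). That of MCM4 was also lost without shAHR#2 replicate 3 or shAHR#3 replicate 2 (adjusted p = 0.19 and 0.0814), and that of MCM5 without any library other than shAHR#2 replicate 1 and shAHR#3 replicate 3 (adjusted p from 0.0512 to 0.31). Without the filter on low counts neither difference was called (adjusted p = 0.0583 for MCM4 and 0.0912 for MCM5), and DESeq2 did not call that of MCM5 (0.0742).

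Of the genes that turn the loaded helicase into the active CMG complex, most fell. CDC45, GINS1 and GINS3 fell with both constructs, GINS2 with shAHR#2 only and GINS4 with shAHR#3 only, and MCM10, which acts in helicase activation, rose with both. GINS1 (ENSG00000101003.10, chr20:25391008-25452700) was at 51.4, 54.5 and 51.9 CPM in the controls, 35.8, 37.7 and 37.2 with shAHR#2 and 44.2, 41.1 and 40.3 with shAHR#3. Every shAHR library was below every control, by log2 fold changes of -0.51 (SE 0.05) and -0.33 (SE 0.05) (adjusted p = 1.09e-10 and 9.65e-07, edgeR's quasi-likelihood test). GINS4, a subunit of the same 4-protein complex, was at 62.8, 64.9 and 61.0, 58.4, 59.9 and 64.7 and 44.3, 44.3 and 44.5 CPM. Its shAHR#2 libraries overlapped the controls and its shAHR#3 libraries lay far below both, with log2 fold changes of -0.05 (SE 0.05) and -0.50 (SE 0.05) and a direct difference of -0.46 (SE 0.05) (adjusted p = 5.48e-10, edgeR's quasi-likelihood test). With library totals in place of TMM the fall with shAHR#2 was called as well (log2 -0.11, adjusted p = 0.0367). CDC45 had log2 fold changes of -0.36 (SE 0.05) and -0.19 (SE 0.05), GINS3 -0.29 (SE 0.08) and -0.21 (SE 0.08), and GINS2 -0.17 (SE 0.06) and -0.11 (SE 0.06), the last of these not called. The fall of GINS2 with shAHR#2 was lost without PLKO-GFP replicate 1 or 2 or shAHR#2 replicate 3 (adjusted p from 0.0621 to 0.102, edgeR's quasi-likelihood test) and passed with shAHR#3 without its replicate 3 (0.0105), and that of GINS3 with shAHR#3 was lost without PLKO-GFP replicate 2 or 3 or shAHR#3 replicate 1 (0.0569 to 0.125). Neither of these falls passed with DESeq2 (adjusted p = 0.0506 for each). MCM10 was at 95.6, 90.5 and 91.3 CPM in the controls, 110.3, 102 and 106 with shAHR#2 and 99.998, 104 and 101 with shAHR#3. Both shAHR groups were above every control, and the log2 fold changes were 0.20 (SE 0.04) and 0.14 (SE 0.04). Of the exon length of GINS4, 23.4% overlaps genes on the opposite strand, and of MCM2 23.6%, and whether the counting used strand is not stated, so reads of such partners cannot be told apart.

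**Figure D2:**
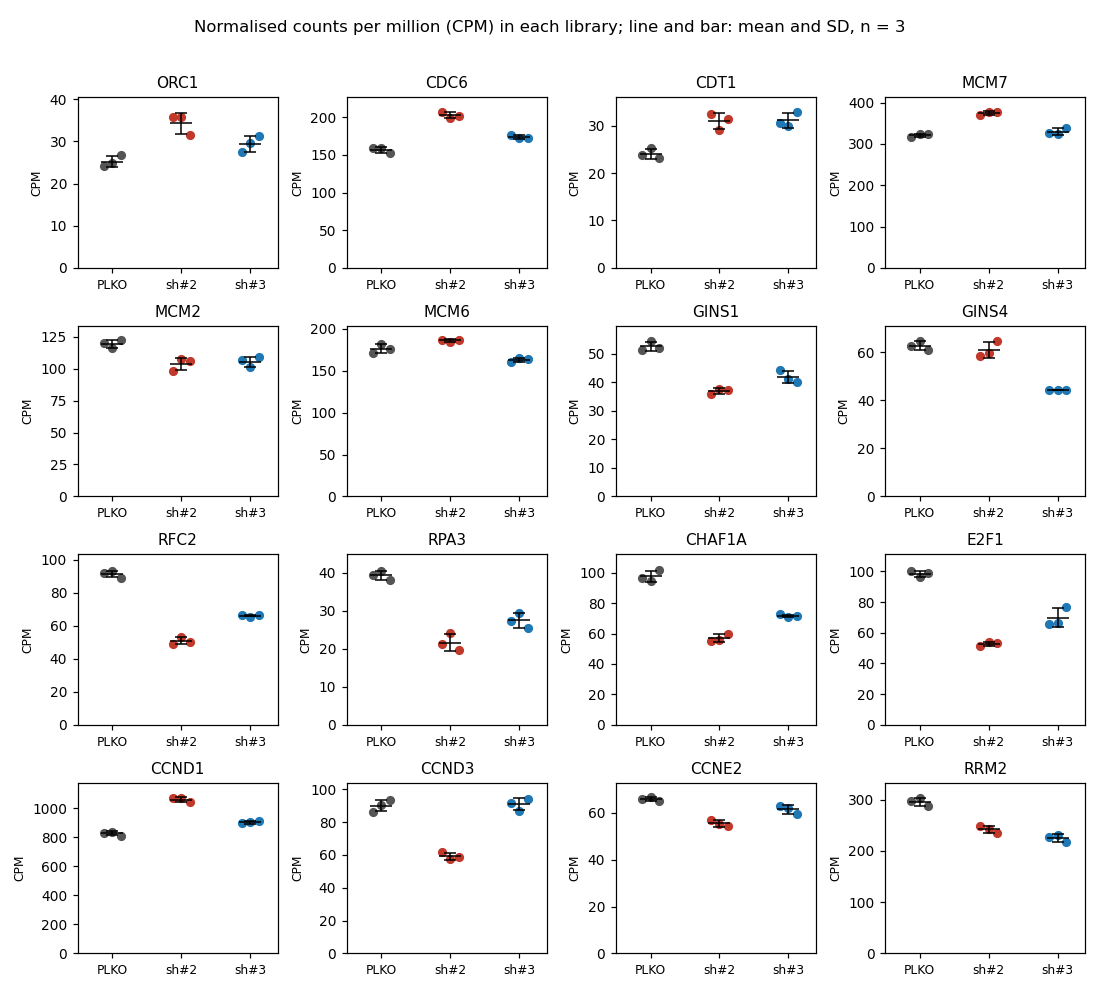
CPM (y axes, each starting at 0) of 16 genes in each library (points) of PLKO-GFP, shAHR#2 (sh#2) and shAHR#3 (sh#3), with the mean and SD (line and bar, n = 3). CDT1 is raised alike in both shAHR groups, GINS4 is at 44.3 to 44.5 CPM in shAHR#3, CCND3 at 57.6 to 61.6 CPM in shAHR#2, and in MCM6 the control libraries at 172 to 182 CPM lie between those of the constructs.

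The clamp and its loader fell as a group, to a summed level of 80.0% of the control with shAHR#2 and 84.9% with shAHR#3. PCNA, the sliding clamp, and RFC2, RFC4 and RFC5 fell with both constructs and RFC3 with shAHR#3 only. RFC2 (ENSG00000049541.11, chr7:74231499-74254458), a small loader subunit, was at 91.9, 93.0 and 89.1 CPM in the controls, 49.1, 53.5 and 50.4 with shAHR#2 and 66.4, 65.6 and 66.4 with shAHR#3. The 3 groups were separate, the lowest being shAHR#2, with log2 fold changes of -0.84 (SE 0.04) and -0.47 (SE 0.04) and a direct difference of 0.38 (SE 0.04) (adjusted p = 2.21e-19, 2.14e-12 and 5.71e-09, edgeR's quasi-likelihood test). PCNA had smaller log2 fold changes of -0.26 (SE 0.03) and -0.22 (SE 0.03), RFC4 -0.33 (SE 0.05) and -0.20 (SE 0.05), and RFC5 -0.19 (SE 0.04) and -0.17 (SE 0.04). The fall of RFC3 with shAHR#3, -0.11 (SE 0.04) on the log2 scale, was at the threshold (adjusted p = 0.0464, edgeR's quasi-likelihood test) and was lost with DESeq2 (adjusted p = 0.0943), without the filter on low counts (0.0939), with a mean of at least 50 counts (0.0505), with only the compared groups in the fit (0.0711), and without any library other than PLKO-GFP replicate 3 (adjusted p from 0.0573 to 0.255). The log2 fold change of RFC3 with shAHR#2, -0.06 (SE 0.05), passed only with library totals in place of TMM (adjusted p = 0.0191) among the settings tried.

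Of the 8 polymerase and primase genes 5 fell with both constructs and 1, POLE, rose with shAHR#3. Of all tested genes, 33.2% fell with shAHR#2 and 27.5% with shAHR#3. POLA1, POLA2, PRIM1 and PRIM2, the 4 subunits of the polymerase alpha-primase complex that lays down primers, fell with both constructs, as did POLD3 of polymerase delta. POLA2 shares 16.8% and PRIM1 15.1% of exon length with overlapping genes on the same strand, so the counts of both are uncertain. POLA2 was at only 3.56, 4.29 and 3.29 CPM in the controls, 2.47, 2.83 and 2.53 with shAHR#2 and 2.37, 2.46 and 2.64 with shAHR#3. All shAHR libraries of POLA2 were below the controls, with log2 fold changes of -0.52 (SE 0.18) and -0.58 (SE 0.18) with large errors (adjusted p = 0.0144 and 0.00644, edgeR's quasi-likelihood test), and both calls were lost without PLKO-GFP replicate 2 (adjusted p = 0.0969 and 0.0583), the first also without shAHR#2 replicate 1 (0.0544). POLA1, the catalytic subunit, fell by log2 fold changes of -0.49 (SE 0.05) and -0.35 (SE 0.05). PRIM1 and PRIM2 fell by less, with log2 fold changes from -0.21 to -0.15, and the calls of PRIM1 were lost without PLKO-GFP replicate 2 (adjusted p = 0.104 with shAHR#2 and 0.345 with shAHR#3, edgeR's quasi-likelihood test). That with shAHR#2 was also lost without shAHR#2 replicate 1 (0.0515), and that with shAHR#3 without shAHR#2 replicate 2 or shAHR#3 replicate 1 or 2 (0.0534 to 0.174). DESeq2 did not call PRIM1 with shAHR#3 (adjusted p = 0.0761), nor did edgeR's quasi-likelihood test without the filter on low counts (0.0504) or with only the compared groups in the fit (0.0512). POLD3 fell by log2 fold changes of -0.13 (SE 0.05) and -0.15 (SE 0.05), the first lost without PLKO-GFP replicate 3 or shAHR#2 replicate 1 or 2 (adjusted p from 0.0621 to 0.104, edgeR's quasi-likelihood test).

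POLE, the catalytic subunit of the leading-strand polymerase epsilon, was at 126, 131 and 135 CPM in the controls, 132, 141 and 141 with shAHR#2 and 156, 150.0 and 159.9 with shAHR#3. The shAHR#3 libraries were above all others, whereas those of shAHR#2 overlapped the controls, with log2 fold changes of 0.08 (SE 0.04) and 0.25 (SE 0.04) (adjusted p = 0.0641 and 1.59e-07, edgeR's quasi-likelihood test) and a called difference of 0.17 (SE 0.04) (adjusted p = 0.000116, same test). The rise with shAHR#2 became a call without PLKO-GFP replicate 3, shAHR#2 replicate 1 or shAHR#3 replicate 3 (adjusted p from 0.0165 to 0.0442). In the same test that rise was also called with only the compared groups in the fit (adjusted p = 0.0301) and with a replicate block (0.0419). POLE2, its accessory subunit, had log2 fold changes of 0.08 (SE 0.06) and 0.00 (SE 0.06) and POLD1, the catalytic subunit of polymerase delta, 0.02 (SE 0.06) and -0.07 (SE 0.06), and neither was called.

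The subunits of RPA, a trimer that coats single-stranded DNA, diverged. RPA3 (ENSG00000106399.11, chr7:7636518-7718607), the smallest, was at 39.4, 40.5 and 38.1 CPM in the controls, 21.2, 24.1 and 19.7 with shAHR#2 and 27.3, 29.5 and 25.6 with shAHR#3. Its groups did not overlap, and it fell by log2 fold changes of -0.86 (SE 0.07) and -0.52 (SE 0.07) (adjusted p = 2.24e-13 and 2.25e-08, edgeR's quasi-likelihood test). RPA2 was at 60.2, 54.9 and 58.4, 69.6, 69.7 and 69.0 and 57.9, 58.8 and 59.0 CPM. It was higher in the shAHR#2 libraries alone, by a log2 fold change of 0.26 (SE 0.04) against 0.02 (SE 0.04) with shAHR#3, and the difference between constructs of -0.24 (SE 0.04) was called (adjusted p = 1.85e-05, edgeR's quasi-likelihood test). RPA1, the largest and most abundant, was not called, with log2 fold changes of 0.03 (SE 0.03) and 0.06 (SE 0.03). The change of RPA1 with shAHR#3 passed with a mean of at least 50 counts (adjusted p = 0.0334, edgeR's quasi-likelihood test). The summed level of the 3 subunits was 99.6% and 99.8% of the control.

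Okazaki fragment maturation was represented by a nuclease and a ligase that moved apart. FEN1, the flap endonuclease, was at 176, 168 and 181 CPM in the controls, 188, 194 and 189 with shAHR#2 and 187, 192 and 193 with shAHR#3, and LIG1, which seals the nick, at 69.5, 66.3 and 69.3, 57.5, 57.4 and 56.6 and 57.6, 57.3 and 58.8. No library of a shAHR group overlapped the controls in either gene. FEN1 rose by log2 fold changes of 0.12 (SE 0.03) and 0.12 (SE 0.03), the first of which was lost with library totals in place of TMM, and LIG1 fell by log2 fold changes of -0.26 (SE 0.04) and -0.24 (SE 0.04) (adjusted p from 2.92e-06 to 0.00123 over these 4 tests, edgeR's quasi-likelihood test).

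In nucleotide supply, RRM1 and TK1 rose and RRM2, TYMS and DUT fell with both constructs. RRM2, the regulated small subunit of ribonucleotide reductase, was at 296, 303 and 287 CPM in the controls, 248, 243 and 234 with shAHR#2 and 226, 231 and 217 with shAHR#3. It was lower in every shAHR library, by log2 fold changes of -0.29 (SE 0.03) and -0.40 (SE 0.03) (adjusted p = 1.07e-10 and 4.76e-14, edgeR's quasi-likelihood test), while RRM1, the large subunit of the same enzyme, rose by 0.17 (SE 0.03) and 0.11 (SE 0.03) on the same scale. TK1, the thymidine kinase of the salvage pathway, was at 106, 121 and 121, 131, 139 and 133 and 135, 142 and 146 CPM. Its shAHR libraries were above the controls, 1 of which was lower than the other controls, and the log2 fold changes were 0.21 (SE 0.04) and 0.28 (SE 0.04). TYMS, which makes thymidylate, fell by log2 fold changes of -0.07 (SE 0.03) and -0.11 (SE 0.03), and DUT, which removes dUTP, by -0.17 (SE 0.05) and -0.26 (SE 0.05). For DUT, 14.5% of the exon length overlaps a gene on the opposite strand. Of the exon length of TYMS, 47.9% overlaps ENOSF1 or TYMSOS on the opposite strand, so its small change is uncertain, and the fall with shAHR#2 was lost without PLKO-GFP replicate 1 or shAHR#2 replicate 1 or 3 (adjusted p from 0.0906 to 0.15, edgeR's quasi-likelihood test).

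The G1/S cyclins differed from each other and between the constructs. CCND1 (ENSG00000110092.4, chr11:69641156-69654474), the D-type cyclin with the highest level here, was at 829.6, 839 and 812 CPM in the controls, 1069, 1069.9 and 1043 with shAHR#2 and 895, 902 and 913 with shAHR#3. The 3 groups were separate, with log2 fold changes of 0.36 (SE 0.02) and 0.13 (SE 0.02) and a direct difference of -0.23 (SE 0.02) (adjusted p = 1.41e-15, 3.2e-05 and 5.42e-10, edgeR's quasi-likelihood test). CCND3 (ENSG00000112576.13, chr6:41934934-42050357), another D-type cyclin, was at 86.3, 90.3 and 93.2, 61.6, 57.6 and 58.5 and 91.4, 86.8 and 94.0 CPM. Its shAHR#2 libraries were far below the rest and its shAHR#3 libraries overlapped the controls, and the difference between the constructs, 0.61 (SE 0.04) on the log2 scale, was the largest among the 52 genes (adjusted p = 1.29e-14, edgeR's quasi-likelihood test).

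CCNE2 (ENSG00000175305.18, chr8:94879770-94896678), an E-type cyclin that partners CDK2, was at 65.8, 66.8 and 65.0 CPM in the controls, 57.0, 55.2 and 54.3 with shAHR#2 and 63.0, 62.2 and 59.4 with shAHR#3. All shAHR libraries lay below the controls, with log2 fold changes of -0.25 (SE 0.04) and -0.10 (SE 0.04), but only the first passed the test (adjusted p = 9.34e-06 and 0.0514, edgeR's quasi-likelihood test), the second passing with library totals in place of TMM (adjusted p = 0.0127) or with DESeq2 size factors (adjusted p = 0.0496). Of the exon length of CCNE2, 37.1% overlaps INTS8 or a long non-coding RNA on the opposite strand. CCNE1, its paralog, was at 14.9 to 17.4 CPM over all libraries and was not called, with log2 fold changes of 0.08 (SE 0.08) and 0.03 (SE 0.08).

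Among the E2F factors, the activator E2F1 and the repressor E2F7 fell with both constructs, and their group summed to 73.4% and 75.8% of the control. E2F1 (ENSG00000101412.13, chr20:33675477-33686385) was at 100.1, 96.3 and 99.0 CPM in the controls, 51.1, 53.9 and 53.1 with shAHR#2 and 66.0, 66.6 and 76.8 with shAHR#3. The groups were separate, and the log2 fold change with shAHR#2, -0.90 (SE 0.05), was the largest fall among the 52 genes in that comparison, against -0.49 (SE 0.05) with shAHR#3 (adjusted p = 7.49e-19 and 6.85e-12, edgeR's quasi-likelihood test). E2F1 was higher with shAHR#3 than with shAHR#2, by 0.41 (SE 0.05) on the log2 scale (adjusted p = 1.14e-08, edgeR's quasi-likelihood test), whereas E2F7 was lower, by -0.19 (SE 0.04) (adjusted p = 0.000127). E2F7 had log2 fold changes of -0.30 (SE 0.04) and -0.49 (SE 0.04). E2F8, its fellow repressor, had -0.10 (SE 0.05) and -0.05 (SE 0.05) and E2F2 -0.20 (SE 0.30) and 0.03 (SE 0.29), and neither was called. With library totals in place of TMM, E2F8 was called with shAHR#2 (adjusted p = 0.00453, edgeR's quasi-likelihood test). E2F2 lay between 0.912 and 1.81 CPM in all libraries, so a change of the size seen for E2F7 with shAHR#2 was not detectable at this depth.

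Chromatin assembly behind the fork relies on CAF-1, and its subunits were among the genes that fell most. CHAF1A (ENSG00000167670.16, chr19:4402640-4445018), the large subunit, was at 96.6, 94.6 and 101 CPM in the controls, 55.3, 56.0 and 59.8 with shAHR#2 and 72.5, 71.0 and 71.2 with shAHR#3. No groups overlapped, and the log2 fold changes were -0.78 (SE 0.04) and -0.45 (SE 0.04) (adjusted p = 1.82e-18 and 4.92e-12, edgeR's quasi-likelihood test). CHAF1B, the middle subunit, fell by log2 fold changes of -0.61 (SE 0.06) and -0.50 (SE 0.06). UHRF1, which recruits maintenance DNA methylation after replication, was at 166, 171 and 177, 185, 185 and 185 and 172, 176 and 173 CPM. It was higher with shAHR#2 by 0.11 (SE 0.03) on the log2 scale and not called with shAHR#3, at 0.02 (SE 0.03), and the rise was lost with library totals in place of TMM (adjusted p = 0.194, edgeR's quasi-likelihood test).

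CLSPN, the checkpoint adaptor claspin, was at 152, 143 and 147 CPM in the controls, 123, 116 and 126 with shAHR#2 and 124, 124 and 126 with shAHR#3. It was lower in every shAHR library, by log2 fold changes of -0.27 (SE 0.04) and -0.24 (SE 0.03) (adjusted p = 1.41e-08 and 2.3e-07, edgeR's quasi-likelihood test). TIPIN, which protects stalled forks together with TIMELESS, had log2 fold changes of -0.14 (SE 0.07) and -0.18 (SE 0.07), of which only the second was called. TIPIN shares 21.1% of its exon length with the pseudogene RPL9P25 on the same strand, so its counts are uncertain. The call was lost without PLKO-GFP replicate 1 or 2 or shAHR#3 replicate 3 (adjusted p from 0.0701 to 0.146, edgeR's quasi-likelihood test) and with DESeq2 (0.0544), and that with shAHR#2 appeared without PLKO-GFP replicate 3 (0.0335) or with library totals in place of TMM (0.0113).

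Levels per length ranged widely among the genes. In the control libraries CCND1 was highest, at 173.7 ± 2.88 CPM per kilobase of exon (SD, n = 3), followed by PCNA at 154.6 ± 3.00, TYMS at 121 ± 2.50 and MCM3 at 97.3 ± 0.915. E2F2 was lowest, at 0.264 ± 0.0655, within its spread of POLA2 at 0.309 ± 0.0433, and the next gene, GINS3, was at 3.66 ± 0.126. The level of POLA2 is uncertain, as 16.8% of its exon length is shared with an overlapping gene on the same strand. The subunits of MCM2-7 ran from MCM3 through MCM7 (64.7 ± 0.719), MCM6 (42.7 ± 1.26) and MCM4 (27.0 ± 0.449) to MCM2 (25.3 ± 0.659) and MCM5 (11.5 ± 0.135). Some neighbours in the order did not differ beyond their spread, such as RFC4 at 21.9 ± 1.35 and RFC3 at 21.3 ± 0.884, or CDC6 at 29.5 ± 0.748 and RPA2 at 29.2 ± 1.36. Exon lengths were taken from GENCODE release 44, which may differ from the annotation that was counted. They join all annotated exons of a gene and can exceed the length of 1 transcript, so the order of genes depends on them. MCM4 had 9852 such bases and MCM6 4135, and by CPM the order of these genes was reversed. The control means were 266 CPM for MCM4 and 176 CPM for MCM6.

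**Figure D3:**
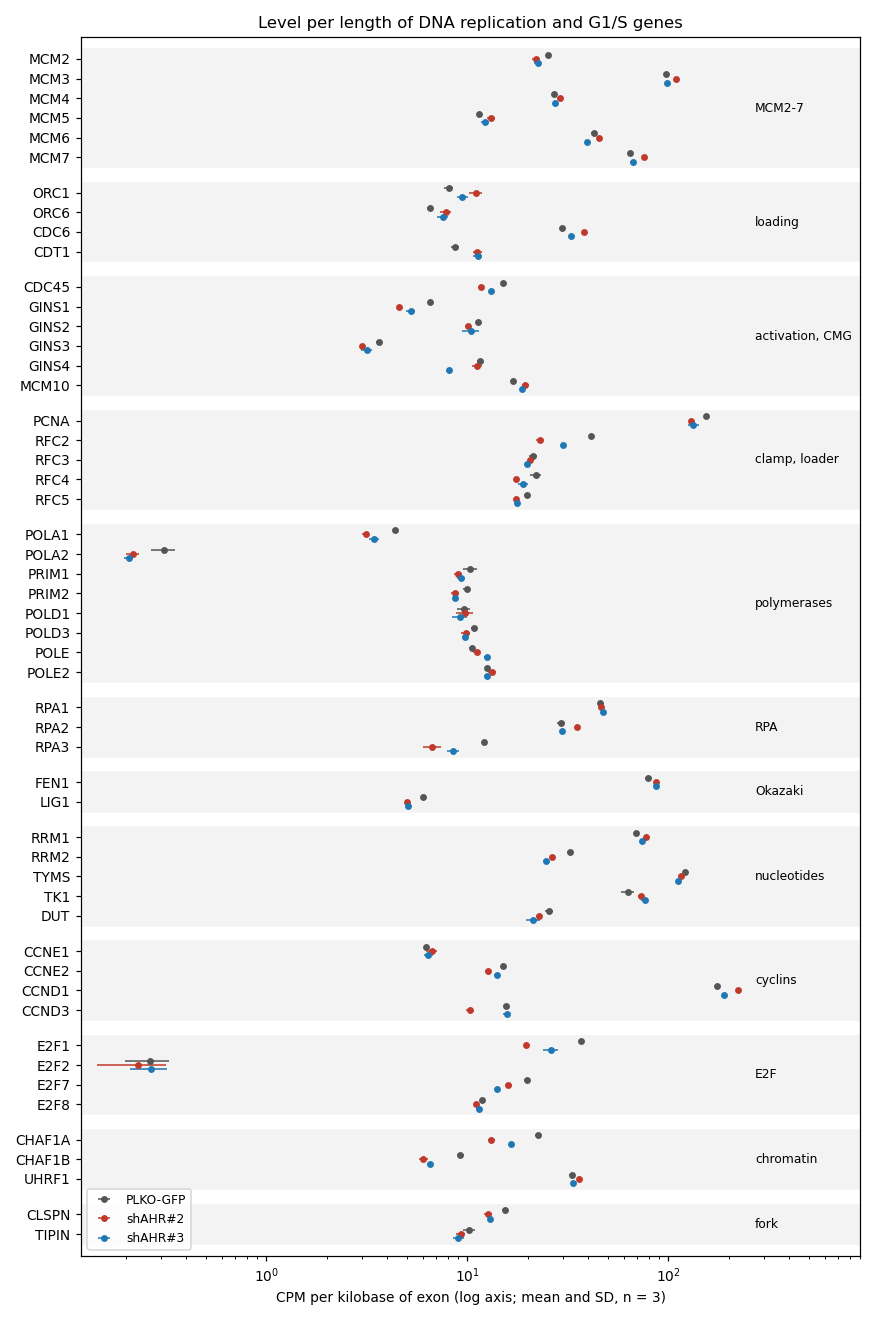
Level per length of the 52 genes (y axis, by role) in CPM per kilobase of exon (x axis, logarithmic), as mean and SD of 3 libraries for PLKO-GFP (grey), shAHR#2 (red) and shAHR#3 (blue). Differences between genes span from 0.264 (E2F2) to 173.7 (CCND1) in the controls and are far wider than those between groups for any gene.

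Compared directly, 24 of the 52 genes differed between the constructs, 11 higher and 13 lower with shAHR#3 than with shAHR#2, where 42.3% of all genes were called, 21.9% higher and 20.4% lower. With library totals in place of TMM the split was 13 higher and 9 lower. The 3 largest differences upward were CCND3, E2F1 and RFC2, and the 3 largest downward were GINS4, RPA2 and CCND1. AHR was itself 0.19 log2 higher with shAHR#3 (adjusted p = 0.00283, edgeR's quasi-likelihood test), a difference lost without shAHR#3 replicate 2 (adjusted p = 0.0626). The overlap of AHR with another gene, given above, makes this difference uncertain too.

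Some of the genes that fell lie on chromosomes whose genes were lower as a whole. The median log2 fold change of all tested genes on chromosome 20, which holds E2F1, GINS1 and PCNA, was -0.31 with shAHR#2 and -0.14 with shAHR#3, and on chromosome X, which holds POLA1, it was -0.24 and -0.32. On chromosome 10, which holds MCM10, it was -0.32 and -0.15 although MCM10 rose. Some genes that rose lie on chromosomes whose genes were higher. The median was 0.13 and 0.12 on chromosome 17, which holds CDC6 and TK1. It was 0.22 and 0.17 on chromosome 12, where POLE rose with shAHR#3 but E2F7, PRIM1 and RFC5 fell. On chromosomes 1, 11 and 16, which hold ORC1, CCND1, CDT1 and ORC6, medians lay between -0.03 and 0.06. On chromosome 7, which holds RFC2 and RPA3, the median was -0.02 and -0.07, and on chromosome 19, which holds CHAF1A and LIG1, 0.11 and 0.10. The part of these shifts in the changes of the genes was not tested.

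A wider list of 51 other genes of the pathway showed both directions as well. With shAHR#2 17 rose, 20 fell and 14 were not called, and with shAHR#3 11 rose, 22 fell and 18 were not called. The shares that rose, 33.3% and 21.6%, stood against 32.6% and 26.9% of all tested genes, and the shares that fell, 39.2% and 43.1%, against 33.2% and 27.5%. Of its 16 G1/S regulators 9 rose and 5 fell with shAHR#2, and 6 rose and 4 fell with shAHR#3. Of its 12 fork and polymerase genes 2 rose and 5 fell, and 3 rose and 6 fell. Of its 13 origin and helicase genes 3 rose and 5 fell with shAHR#2, and 2 rose and 7 fell with shAHR#3. Of its 10 genes of nucleotide supply and chromatin 3 rose and 5 fell, and 0 rose and 5 fell. CCND2 (ENSG00000118971.9, chr12:4269771-4305353), the remaining D-type cyclin, was at 0.960, 1.15 and 0.861 CPM in the controls, 16.7, 14.5 and 16.1 with shAHR#2 and 4.48, 3.74 and 4.00 with shAHR#3. It was thus low in the controls and higher in every shAHR library, by log2 fold changes of 3.99 (SE 0.16) and 2.03 (SE 0.20) (adjusted p = 7.1e-23 and 3.23e-11, edgeR's quasi-likelihood test), and it shares 12.5% of its exon length with an overlapping gene on the same strand. CDK6, the kinase partner of D-type cyclins, was at 244, 245 and 227, 442, 419 and 429.6 and 359.9, 351 and 328 CPM. Its groups were separate, with log2 fold changes of 0.85 (SE 0.03) and 0.54 (SE 0.03). POLD4, a small subunit of polymerase delta, was scarce, at 1.69 to 3.25 CPM in the controls against 3.27 to 3.85 and 2.87 to 4.10. It shares 21.3% of its exon length with an overlapping gene on the same strand. Its rises (0.58 (SE 0.21) and 0.56 (SE 0.20)) were lost without PLKO-GFP replicate 1 (adjusted p = 0.106 and 0.137, edgeR's quasi-likelihood test) or without PLKO-GFP replicate 3 (0.056 and 0.074). That with shAHR#3 was also lost without its replicate 3 (0.11).

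SKP2 (ENSG00000145604.17, chr5:36151989-36196849), the F-box protein through which the inhibitor p27 is degraded, was at 61.1, 64.3 and 65.4 CPM in the controls, 21.7, 24.2 and 24.6 with shAHR#2 and 37.8, 37.9 and 35.9 with shAHR#3. The 3 groups were separate and the fall was larger with shAHR#2, with log2 fold changes of -1.44 (SE 0.06) and -0.78 (SE 0.05) and a difference of 0.67 (SE 0.06) (adjusted p = 1.29e-22, 2.26e-15 and 1.81e-11, edgeR's quasi-likelihood test). E2F5, which acts with RB-family repressors, was at 16.5, 18.7 and 17.2, 7.19, 6.94 and 6.71 and 8.49, 8.96 and 7.37 CPM, and MCM8, of a helicase used in repair, at 48.3, 49.8 and 45.1, 25.4, 25.2 and 25.8 and 31.9, 32.0 and 28.5. Both were lower in all shAHR libraries, with log2 fold changes of -1.33 (SE 0.10) and -1.08 (SE 0.10) for E2F5 and -0.91 (SE 0.06) and -0.63 (SE 0.06) for MCM8. The median log2 fold change of chromosome 5, which holds SKP2, was -0.48 with shAHR#2 and -0.26 with shAHR#3. MCM8 shares 33.3% of its exon length with an overlapping gene on the same strand. For E2F5, 18.8% of the exon length overlaps genes on the opposite strand.

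Of 10 genes of CDK inhibitors and the RB family, 8 were tested, and CDKN2A and CDKN2B had 0 counts in every library. With shAHR#2 3 rose and 4 fell, and with shAHR#3 4 rose and 2 fell, where 65.8% and 54.4% of all tested genes were called. CDKN1A, which encodes p21, was at 24.2, 25.4 and 22.7 CPM in the controls, 41.1, 41.6 and 43.8 with shAHR#2 and 34.0, 36.3 and 38.2 with shAHR#3, and CDKN1B, which encodes p27, at 68.1, 64.3 and 68.3, 91.1, 94.0 and 91.4 and 91.0, 93.3 and 89.4. Every shAHR library of both genes was above every control. The log2 fold changes were 0.81 (SE 0.06) and 0.59 (SE 0.06) for CDKN1A and 0.46 (SE 0.04) and 0.45 (SE 0.04) for CDKN1B (adjusted p from 7.21e-14 to 4.89e-10, edgeR's quasi-likelihood test). RB1, the retinoblastoma gene, rose by 0.17 (SE 0.03) and 0.16 (SE 0.03), and its relatives fell, RBL2 by log2 fold changes of -0.26 (SE 0.05) and -0.25 (SE 0.05) and RBL1 by -0.17 (SE 0.04) and -0.23 (SE 0.04). For RBL2, 16.4% of the exon length overlaps genes on the opposite strand.

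**Figure D4:**
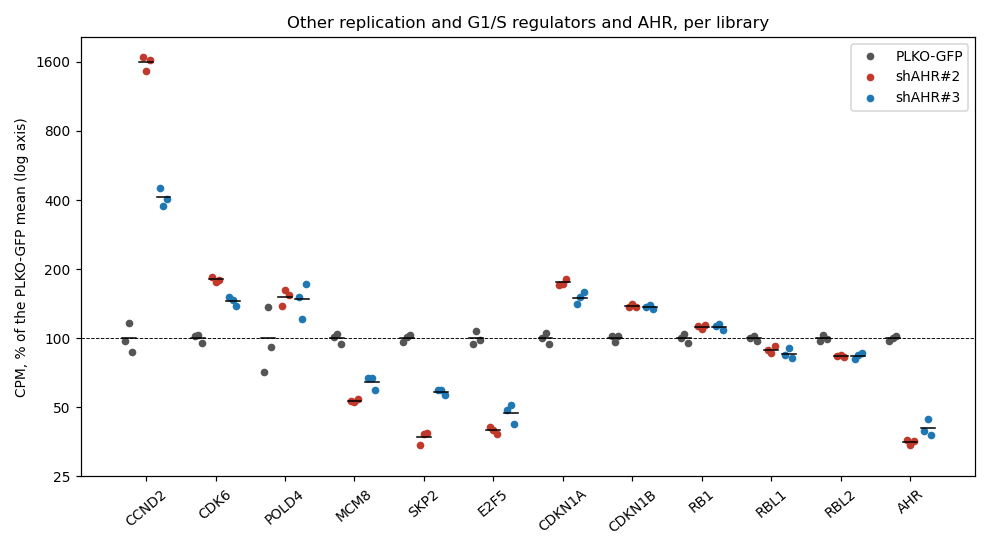
CPM as percent of the PLKO-GFP mean (y axis, logarithmic) in each library (points, with the group mean as a line) for 6 genes of the wider list, 5 of the CDK inhibitor and RB family list, and AHR. CCND2, CDK6, CDKN1A and CDKN1B lie above the dashed line at 100 in all shAHR libraries, and MCM8, SKP2, E2F5, RBL1 and RBL2 below it, with SKP2 at 37.0% and 58.5% of the control on average.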

How the data were processed

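RNA was sequenced from a single end after poly(A) selection with a stranded kit, and the authors aligned reads to GRCh38.p13 with STAR. They deposited raw counts, whole numbers of reads per gene without normalization. The submitters' processing notes also name FastQC and featureCounts (Subread). The annotation release and the strand setting are not given in the sources used here, so counts of overlapping genes are uncertain. Libraries of 1 group differed beyond sampling noise (chi-square over degrees of freedom 1.76 to 4.24), and none was merged.

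The 9 libraries were grouped by their labels, whose construct numbers #2 and #3 are used. With R 4.3.3, genes passing filterByExpr of edgeR 4.0.16 (minimum count 10, minimum total 15) were scaled by TMM, and glmQLFit and glmQLFTest, its quasi-likelihood test, took all libraries in 1 fit with group as the only factor, with Benjamini-Hochberg adjustment over 14274 genes and a threshold of 0.05. The study used DESeq2, which was kept as an alternative (version 1.42.0). The code was tested on simulated data. Standard errors were obtained as the absolute log2 fold change over the square root of F. The biological coefficient of variation was 2.96%, which together with 15991396 to 20374460 counts per library let changes of about 0.1 on the log2 scale be called for abundant genes.

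The genes, the wider list and the list of CDK inhibitors and the RB family were chosen with earlier results of these data known, so counts over them support nothing by themselves and no list was tested. Values per library are given for MCM2, CCNE2 and AHR, in each role for the largest called rise and fall of the mean of both constructs, for the 3 largest differences each way between constructs, for opposite calls, and for up to 3 called rises and falls of each other list. ORC1, CDC6 and other genes beyond that rule were added after their values were seen. Alternatives were DESeq2, its size factors, library totals without TMM, no filter, a mean of at least 50 counts, a block for the replicate number, a fit to only the groups compared, each library left out, an adjusted p under 0.01 and a log2 fold change of at least 0.5. Of the 14274 tested identifiers 14252 were found in GENCODE release 44. Promoters of MCM4, MCM5, GINS4, POLD3, RPA2, RPA3, CCNE2, CCND1 and E2F8 were not analysed here.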

Additional observations from a re-analysis of the deposited data

Results flagged for a closer look

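MCM6, a subunit of the MCM2-7 helicase, was singled out because its effect differed between the constructs: it was called higher with shAHR#2 and lower with shAHR#3 against the same 3 control libraries, and the direct comparison of shAHR#3 with shAHR#2 gave a log2 difference of -0.19 (SE 0.03, adjusted p = 3.4e-06, quasi-likelihood test of edgeR with Benjamini-Hochberg adjustment). The 3 shAHR#3 libraries were all below the 3 shAHR#2 libraries. The rise with shAHR#2 depended on the settings, while the difference between the constructs passed an adjusted p of 0.05 in all of those tried and does not reach an absolute log2 fold change of 0.5.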

How the results depend on the processing

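Of 256 log2 fold changes (64 genes in 4 comparisons), none reversed its call under any alternative tried, 28 lost their call without 1 of the libraries and 19 in another setting. Counts moved by over 1.5 times only with an absolute log2 fold change of at least 0.5. For shAHR#2, shAHR#3, their mean and shAHR#3 against shAHR#2, that left 0, 0, 0 and 1 of the 52 genes higher and 8, 4, 6 and 0 lower. Of the wider list it left 3, 4, 3 and 1 higher and 7, 3, 5 and 1 lower. Of all tested genes, 29.6%, 17.5%, 23.0% and 11.4% passed this threshold in either direction, in the same order of comparisons. Without 1 library, the 52 genes had 15 to 17 higher and 22 to 26 lower with shAHR#2, 10 to 11 and 22 to 26 with shAHR#3, 14 to 16 and 25 to 29 for the mean, and 8 to 12 and 11 to 14 between the constructs. The wider list then had 14 to 17 and 19 to 20, 10 to 13 and 18 to 22, 10 to 14 and 18 to 20, and 13 to 16 and 11 to 15.

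Library totals in place of TMM gave 12 rises and 30 falls among the 52 genes with shAHR#2, 10 and 28 with shAHR#3, and 13 and 9 between the constructs, where the wider list had 17 and 11 instead of 15 and 15. Deviations of libraries with the same replicate number correlated weakly, by 0.00314 to 0.0578, yet all 9 libraries correlated best with a library of their own number. Whether the number pairs the libraries was not tested. With that number as a replicate block, 17 of the 52 genes rose and 26 fell with shAHR#2 and 11 and 28 with shAHR#3, and the block changed 3 of the 256 calls, those of MCM5 and CCNE2 with shAHR#3 and POLE with shAHR#2, which passed. Changes near 0.1 on the log2 scale, and genes of few counts such as E2F2 and POLA2, are limited by depth and by 3 libraries per group. The causes of lost calls were not tested.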
